A study of Mus musculus with 1600 samples.

Results

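Tnmd, which encodes tenomodulin, and Lect1, the symbol used in the count table for the chondromodulin gene (also called Cnmd), were followed through 477 single cells of the developing mouse limb. These 2 genes were taken by symbol from the 22092 gene symbols of the table. The cells came from C57BL/6 embryos that all carried a SCX-GFP transgene, in which a fluorescent protein marks cells that use scleraxis (Scx) regulatory sequence. They were labelled as hind limb from 3 embryonic stages, with 119 kept cells of E10.5, 158 of E12.5 and 200 of E15.5, and were captured on the Fluidigm C1, a chip that isolates single cells. The labels name no sort for the fluorescent protein, and whether transgene reads add to Scx is not given in the sources used here. Each stage came from pooled limbs of siblings, 3 to 5 limbs to a pool. A stage is therefore a single sample, and neither stages nor classes of cells could be tested against each other.

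The cells labelled E10.5 did not hold the gene that marks the labelled limb. Pitx1, a transcription factor of the hind limb, was at 0 counts there, while Tbx5, its forelimb counterpart, stood at 67.9 CPM (counts scaled to a total of 1000000) and had a count in 73.1% of them. Cells of E12.5 held 169 CPM of Pitx1 and 0.739 CPM of Tbx5, and cells of E15.5 held 68.7 and 6.32 CPM. Any difference from the cells labelled E10.5 therefore cannot be told apart from a difference between limbs. Counts summed over cells came to 33742559, 46009284 and 46035725 in the 3 stages, with 2681 to 1185267 per cell. Libraries were made in 12 pools of 40 cells, of which pools 1 to 3 held the E10.5 cells, pools 4 to 7 the E12.5 cells and pools 8 to 12 the E15.5 cells. The pools are a technical split. All intervals in the text are 95% intervals that cover counting error only, exact Poisson for summed counts and exact Clopper-Pearson for shares of cells, and reads multiplied by PCR are not independent molecules.

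Tenomodulin and chondromodulin are the closest relatives in a family of type II membrane proteins that carry a BRICHOS domain and a cysteine-rich C-terminal domain. Tenomodulin is a classical marker of differentiated tendon and ligament cells, downstream of scleraxis, and chondromodulin is made by cartilage, where SOX9 drives the chondrocyte programme. Both are known for inhibiting endothelial cells, and tendon and cartilage are tissues with few or no vessels.

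In the GENCODE annotation of mouse build GRCm38, Tnmd lies at chrX:133850980-133865577 on the plus strand, with 1353 exon bases. Lect1 lies at chr14:79637690-79662170 on the minus strand, with 1843 exon bases. The sequence upstream of each start is shown because the cells that carried each gene differed in Scx and Sox9, whose proteins bind E-boxes and SOX sites. The windows run from 250 to 31 bases before the start in the RefSeq promoters of GRCm38.p6, 5′ to 3′ on the gene's strand, which are chrX:133850758-133850977 for Tnmd and chr14:79662214-79662433 for Lect1. Capitals mark an E-box (CANNTG) or a SOX core (ACAAT or its reverse complement ATTGT).
Tnmd: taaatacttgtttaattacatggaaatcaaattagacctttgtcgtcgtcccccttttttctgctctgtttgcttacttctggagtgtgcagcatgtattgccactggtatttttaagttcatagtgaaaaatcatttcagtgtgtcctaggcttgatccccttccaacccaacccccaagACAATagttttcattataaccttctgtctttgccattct
Lect1: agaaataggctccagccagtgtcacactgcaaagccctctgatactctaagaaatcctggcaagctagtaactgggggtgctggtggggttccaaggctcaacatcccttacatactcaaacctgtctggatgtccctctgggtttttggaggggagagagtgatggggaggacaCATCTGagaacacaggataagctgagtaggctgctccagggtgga
The Tnmd window held 0 E-boxes and 1 SOX core, 69 to 65 bases before the start. The Lect1 window held 1 E-box, CATCTG, 75 to 70 bases before the start, and 0 SOX cores. Both letter patterns are common: of 32851 promoter windows of the same length, 62.1% held an E-box and 25.6% a SOX core on either strand. GC content was 38.6% in the Tnmd window and 52.3% in the Lect1 window, against a median of 51.8%. A match is a description of letters, and none of these windows was measured here.

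Tnmd was at 0, 4.24 and 192 CPM and Lect1 at 0.0296, 14.5 and 103 CPM in the sums of the 3 stages. No count of Tnmd was found in the cells labelled E10.5 (0 of 33742559 counts), with an exact upper limit of 0.109 CPM. The level of 3 counts there, used as a floor, was 0.0889 CPM. At E12.5 it had 195 counts, or 4.24 CPM (3.66 to 4.88), spread as 9.82 CPM in pool 4, 0 in pool 5, 0.575 in pool 6 and 5.19 in pool 7. At E15.5 it had 8828 counts, or 192 CPM (188 to 196), with 385 CPM in pool 8, 143 in pool 9, 52.0 in pool 10, 168 in pool 11 and 146 in pool 12. Every pool of E15.5 was above every pool of E12.5, and the pools of E12.5 overlapped those of E10.5 at 0. The rise to E15.5 was 45.2-fold (39.3 to 52.4), or a log2 ratio of 4.41 with 5 added to each CPM. It was 82.2-fold without pool 4 and 30.5-fold without pool 8. The step from E10.5 to E12.5 was 47.7-fold on the floor of 3 counts, and 38.4-fold at the lower end of the exact interval. On that floor it was 26.2-fold without pool 4, 30.1-fold without pool 1 and 31.1-fold without pool 2. The step had a log2 ratio of 0.89 and overlapping pools, so it was not called. It was called at 1.08 when pool 5, which held no count, was left out.

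Lect1 was down to a single count (1 count) in the cells labelled E10.5. At E12.5 it had 667 counts, or 14.5 CPM (13.4 to 15.6), with 7.17 CPM in pool 4, 22.1 in pool 5, 38.3 in pool 6 and 0.208 in pool 7. A single cell gave 87.4% of the counts in pool 6. At E15.5 it had 4725 counts, or 103 CPM (99.7 to 106), with 103 CPM in pool 8, 182 in pool 9, 82.5 in pool 10, 64.8 in pool 11 and 85.2 in pool 12. All pools of E15.5 lay above those of E12.5. The rise from E12.5 to E15.5 was 7.08-fold (6.53 to 7.69), 11.5-fold without pool 6 and 4.88-fold without pool 7. Without the highest cell of each pool the pools of these stages overlapped and the call was lost at a log2 ratio of 2.53. From E10.5 to E12.5 the rise was 489-fold, with a counting interval of 87.5 to 19350 that reflects the single count at the lower stage. Leaving out pool 6 gave 302-fold and leaving out pool 1 gave 309-fold, and pool 2 held the single count. The pools of this step were close at one end: pool 7 held 3 counts, or 0.208 CPM (0.0428 to 0.607), and pool 2 held 0.0851 CPM (0.00215 to 0.474), so these intervals overlapped. The call of the first step was lost with 20 added to each CPM (0.78) and without the highest cell of each pool (0.94).

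A gene was called between stages where the log2 ratio reached 1 in size and no pool of one stage overlapped the other. Of 13125 genes tested, 7.76% were called higher and 2.83% lower in the first step (E10.5 to E12.5). In the second step (E12.5 to E15.5) 2.99% were called higher and 1.63% lower. Lect1 was called higher in both steps and Tnmd in the second. Per kilobase of exon, Tnmd stood at 3.13 CPM and Lect1 at 7.87 CPM at E12.5, and at 142 and 55.7 CPM at E15.5, so the order of the sums was the opposite at the later stage. It was not the same in every pool. Per kilobase, Tnmd was the higher in pools 4 and 7 of E12.5 (7.26 against 3.89 CPM and 3.84 against 0.113 CPM). Lect1 was the higher per kilobase in pool 10 of E15.5 (44.8 against 38.4 CPM). Before division by exon length, Lect1 was also the higher in pool 9 of E15.5 (182 against 143 CPM). Whether counts scale with exon length in these libraries was not tested. Summed counts cannot tell fewer cells of a type from less RNA per cell.

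**Figure D1:**
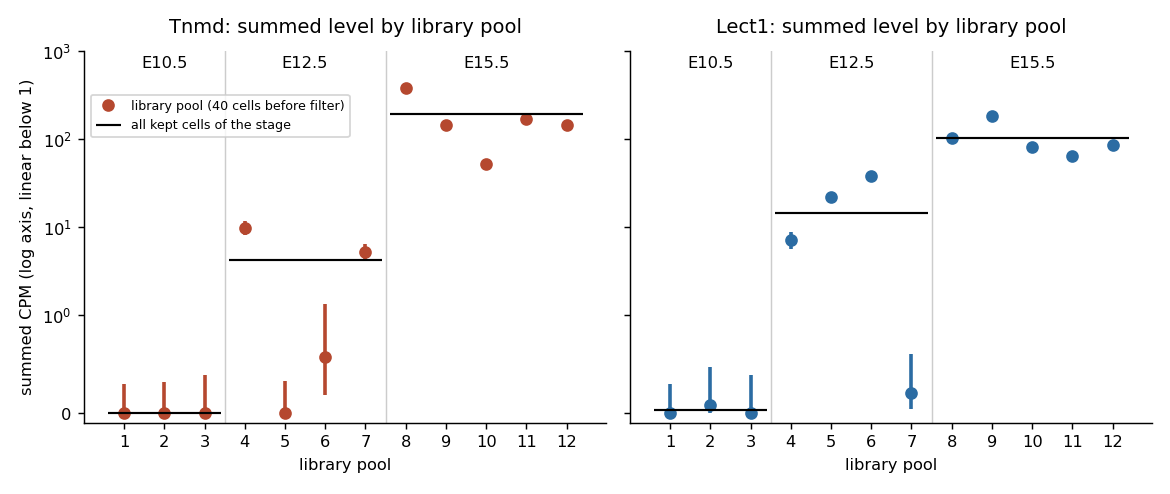
Summed CPM of Tnmd (left) and Lect1 (right) in each of the 12 library pools, on an axis that is logarithmic above 1 and linear below. Points are pools with exact Poisson intervals, and lines are all kept cells of a stage; the E15.5 pools of Tnmd sit between 52.0 and 385 CPM and those of Lect1 between 64.8 and 182, above every earlier pool.

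Both transcripts came from a minority of cells. A cell was counted as carrying a gene at 3 or more counts and at least 50 CPM. At E15.5, 32 of 200 cells (16.0%, 11.2 to 21.8) carried Tnmd, with 53.9 CPM in the lowest, a median of 382 and 3590 in the highest. Lect1 was carried by 23 cells (11.5%, 7.43 to 16.8), with 53.6 CPM in the lowest, a median of 561.6 and 1934 in the highest. These cells held 98.5% of the Tnmd counts and 98.6% of the Lect1 counts of the stage, and the 10 highest cells held 86.1% and 83.6%. At E12.5, 3 cells carried Tnmd, at 71.6, 126 and 266 CPM. Lect1 was carried at that stage by 8 cells, from 126 through a median of 257 to 1438 CPM.

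Single counts were far more widespread than carried levels. At E15.5, 99 of 200 cells had a count of Tnmd and 61 a count of Lect1. With each cell thinned to 50000 counts, this left 55 of 185 cells (29.7%) for Tnmd and 35 (18.9%) for Lect1, with 15 shallower cells left out. Endothelial-like cells of the same stage should lack both genes. Of 10 such cells, 6 had a count of Tnmd and 4 a count of Lect1, at summed levels of 2.86 and 2.60 CPM and a median of 259335 counts per cell, against 192228 over the stage. Of 11 muscle-like cells, 2 (18.2%) had a count of each gene, at 1.498 and 2.62 CPM and a median of 232139 counts per cell. No endothelial-like or muscle-like cell carried either gene. Epithelial-like cells of E15.5 differed: of 29 cells, 14 had a count of Tnmd and 12 a count of Lect1, and 1 carried Tnmd and 4 Lect1. The limit for carrying a gene thus did not leave every such cluster without carriers. These cells, not all of which held high keratin levels, are described under other observations. Single counts thus also occurred in cells that should lack the genes, and the values that follow rest on carried levels.

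Tnmd and Lect1 were mostly carried by different cells at E15.5, and the share with Lect1 was alike in cells with and without Tnmd. Of 200 cells, 28 carried Tnmd only, 19 Lect1 only, 4 both and 149 neither. Of the 32 cells carrying Tnmd, 4 carried Lect1 (interval 3.51 to 29.0%), and of all other cells 11.3% (6.95 to 17.1) did, so the intervals overlapped. Read the other way, 17.4% of Lect1 cells and 15.8% of other cells carried Tnmd. Pearson's r of the genes' log2(CPM + 10) was 0.019 over the 200 cells, which share 1 sample and 5 pools. At E12.5, 3 cells carried Tnmd only, 8 Lect1 only and 0 both. In the 28 Tnmd-only cells Lect1 reached at most 12.8 CPM, and in the 19 Lect1-only cells Tnmd reached at most 18.9 CPM, both under the 50 CPM that set these classes. The number of cells with both was 32 when a single count was enough and 1 when 200 CPM was asked for.

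The 4 cells with both genes were of 2 kinds. A cell of pool 8 held 1835 CPM of Tnmd and 240 of Lect1, with 651 CPM of Scx, 388 of Kera, 966 of Thbs4 and 1.97 of Sox9. A cell of pool 11 held 3217 CPM of Tnmd and 99.1 of Lect1, with 475 CPM of Scx, 735 of Kera, 1210 of Thbs4 and 4.13 of Sox9. Both of these had tendon genes high, and their Col2a1, the type II collagen of cartilage, was at 183 and 260 CPM. A cell of pool 9 held 1934 CPM of Lect1 and 67.4 of Tnmd, with 10017 CPM of Col2a1, 1350 of Acan, 583.8 of Sox9 and 0 of Scx. Another cell of pool 8 held 294 CPM of Lect1 and 137 of Tnmd, with 13453 CPM of Col2a1, 763 of Acan, 411 of Sox9 and 0 of Scx. These had the cartilage genes high and 0 counts of Kera and Thbs4. Pool 8 gave 2 of the 4 cells, so 2 remained without it. Scrublet, a doublet caller, marked 16 cells of the stage, and 1 of the 4 was among them. In all, 9 of the 16 lay among the 51 cells that carried a member. Without the 16 cells the class comparisons that follow had 3 and 4 tendon genes called higher in Tnmd-only cells (against Lect1-only and neither), as with all cells, and 11 and 10 cartilage matrix genes called higher in Lect1-only cells, where all cells gave 9 and 11.

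**Figure D2:**
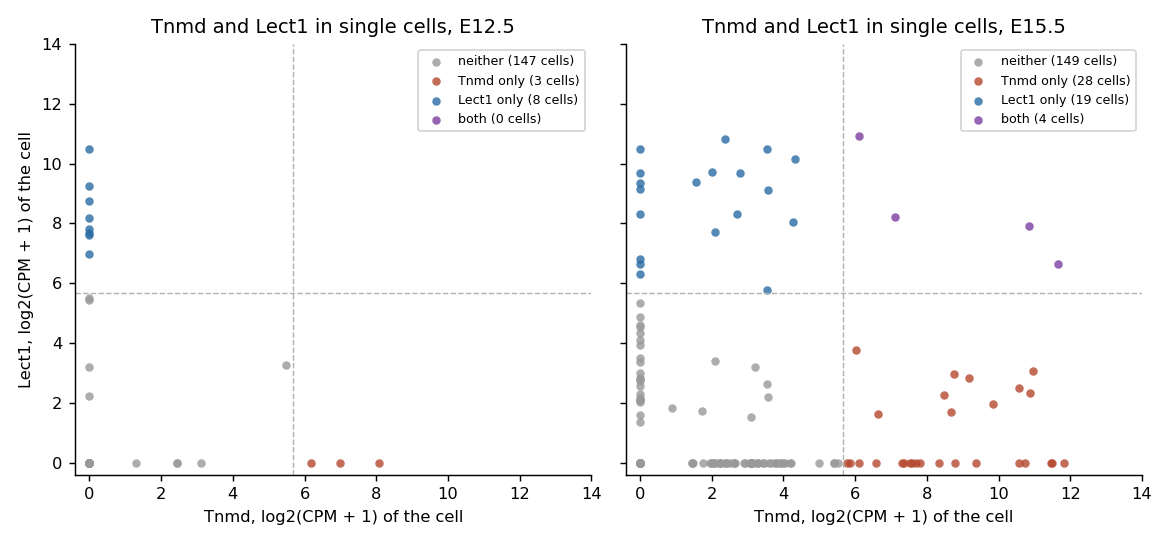
Level of Lect1 against Tnmd in every kept cell of E12.5 (158 cells) and E15.5 (200 cells), as log2(CPM + 1); dashed lines mark 50 CPM and colours the 4 classes. The coloured cells lie along both axes, and 4 cells at E15.5 lie beyond both lines.

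At E15.5, the transcription factors Scx and Mkx and type I collagen were higher in Tnmd-only cells, and cartilage matrix was higher in Lect1-only cells. A gene was called between classes where the log2 ratio of summed CPM + 5 reached 1 in size and had the same sign in all 5 pools. Of the 13125 genes, 2.14% were called higher in Tnmd-only cells and 1.04% higher in Lect1-only cells. On the tendon list (without Tnmd), 3 of 8 genes were called higher in Tnmd-only cells and 0 lower, all 8 ratios were above 0, and their median log2 ratio was 1.84, beside 0.02 over all genes. On the list of tendon regulators 3 of 11 were called higher, Scx, Mkx and Nfatc4, with a median of 0.53. Nfatc4, a calcium-regulated transcription factor, was at 1.58 and lost its call without pool 10 (0.88) and with 10 CPM enough to carry a member (0.67). On the cartilage matrix list, 9 of 18 genes were called higher in Lect1-only cells and 0 higher in Tnmd-only cells, all 18 ratios pointed to Lect1-only cells, and the median was -2.34. That count was 8 to 13 when single pools were left out, and 7 when cells with 1000 CPM or more of the keratin Krt10, which 2 Lect1-only cells passed, were left out.

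Scx, the transcription factor of tendon progenitors, stood at 1082 CPM (1057 to 1106) in Tnmd-only cells and at 52.4 CPM (46.4 to 59.1) in Lect1-only cells. Its log2 ratio was 4.24, and 3.44 without pool 11. Over the 28 Tnmd-only cells Scx ran from 0 through a median of 47.4 to 8879 CPM, and over the 19 Lect1-only cells from 0 through a median of 0 to 653 CPM, so the classes overlapped cell by cell and a few cells set the sum. Mkx, which encodes Mohawk, a later tendon transcription factor, was at 92.3 CPM (85.3 to 99.7) in the first class and 10.8 CPM (8.18 to 14.1) in the second, with a log2 ratio of 2.62. Its median over cells was 27.4 CPM in the first class and 0 in the second. Kera, the proteoglycan keratocan, was at 194 against 14.7 CPM, a log2 ratio of 3.33, and 4.76 without pool 8, and was not called when 200 CPM was asked for to carry a member (3.73). Thbs4, a thrombospondin of tendon, was at 98.1 against 6.58 CPM, and Fmod, fibromodulin, at 234 against 110 CPM. Neither had the same sign in every pool.

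Of 16 fibrillar and associated collagens, 2 were called, and these were the chains of type I collagen, the main fibre of tendon. Col1a1 was at 4743 CPM (4692 to 4794) in Tnmd-only cells and at 1912 CPM (1874 to 1950) in Lect1-only cells, a log2 ratio of 1.31. Its cells ran from 153 through a median of 3381 to 14418 CPM in the first class and from 11.6 through 1222 to 10306 CPM in the second. Col1a2 was at 9454 against 4365 CPM with a log2 ratio of 1.11. Its call was lost without pool 9 (0.91) and without the Krt10 cells (0.87). Of 12 small leucine-rich proteoglycans, which bind and space collagen fibrils, 3 were called higher in Tnmd-only cells. These were Kera, Ogn (osteoglycin, log2 ratio 1.90) and Bgn (biglycan, 1.17, and 0.96 without pool 12). Ogn was not called when 10 CPM was enough to carry a member (1.36). Prelp was called the other way at -1.58, and at -0.86 without pool 9 was not.

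Among cartilage genes, Hapln1, which links aggrecan to hyaluronan, was at 14.0 CPM in Tnmd-only cells and at 335 CPM in Lect1-only cells, a log2 ratio of -4.16 and of -3.57 without pool 8. Col9a1, a chain of type IX collagen, was at 38.4 against 730 CPM, with a log2 ratio of -4.08, and -3.48 without pool 10. Acan, the aggrecan core protein, was at 29.9 against 236 CPM, with a log2 ratio of -2.79, and -3.62 without pool 8. Over Lect1-only cells Acan ran from 0 through a median of 118 to 1472 CPM, and over Tnmd-only cells from 0 through 0 to 404 CPM. Col2a1 was at 644 CPM (625.8 to 663) in Tnmd-only and 3658 CPM (3606 to 3710) in Lect1-only cells, with a log2 ratio of -2.50 and of -3.12 without pool 10. Its median over cells was 140 CPM in Tnmd-only and 2810 CPM in Lect1-only cells. The secreted protein Cytl1 followed at -3.51, Col9a2 at -2.07, the sulphate donor enzyme Papss2 at -1.92 and the matrilin Matn4 at -1.78. With 10 CPM enough to carry a member, Acan (-2.73) and Cytl1 (-3.43) were not called. Matn1, matrilin-1, was at 4.40 against 147 CPM, and Col9a3 at 93.9 against 915 CPM, and neither was called because 1 or more pools gave a ratio not below 0. Of 13 chondrogenic regulators 2 were called (4 without pool 8), both higher in Lect1-only cells: Fgfr3, a receptor of growing cartilage, at -3.02 (and -4.05 without pool 9), and Wwp2, a ligase that partners SOX9, at -1.49 (and -2.10 without pool 8). Without the Krt10 cells Fgfr3 was not called. Sox9 itself was at 194 against 437 CPM, a log2 ratio of -1.15 that was not called.

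**Figure D3:**
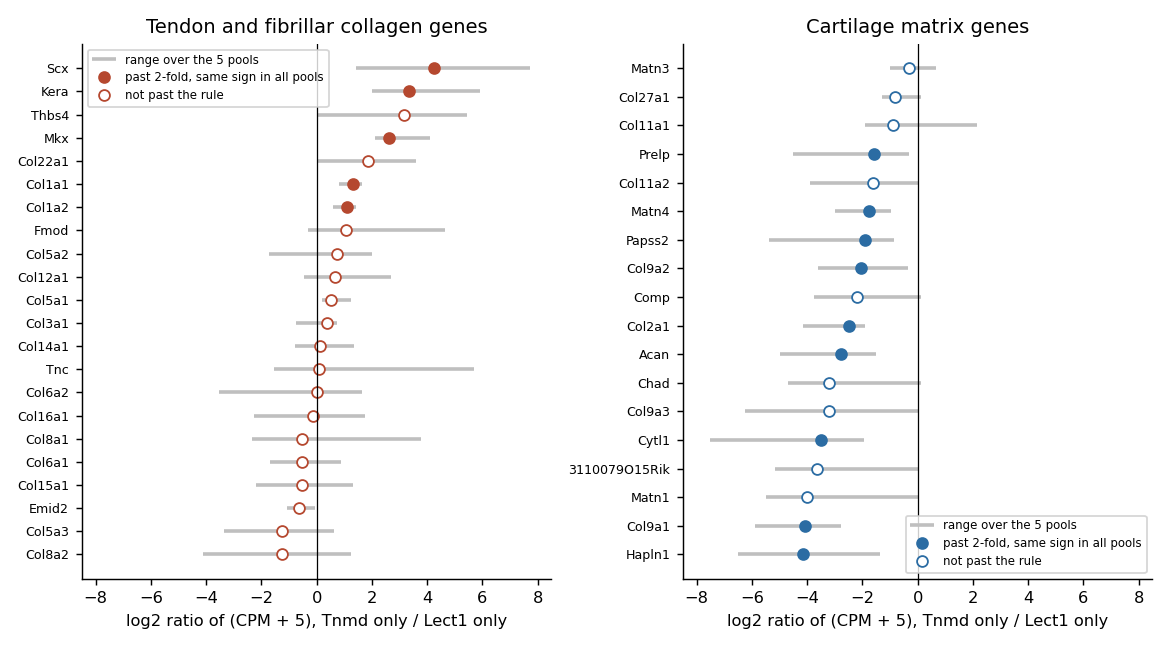
Log2 ratio of summed CPM + 5 in Tnmd-only over Lect1-only cells at E15.5 for genes of the tendon and fibrillar collagen lists (left) and the cartilage matrix list (right). Filled points are past the rule, grey bars span the ratios within the 5 pools; Scx, Kera and Mkx lie above 2 on the left, and all 18 points on the right lie below 0.

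Set against the 149 cells with neither gene, Tnmd-only cells had 4 of 8 tendon genes and both chains of type I collagen called higher. Of all genes, 0.678% were called higher and 5.91% lower in Tnmd-only cells. On the tendon list 4 of 8 were called higher and 0 lower, with a median log2 ratio of 2.01 beside -0.09 over all genes. Scx was at 1082 against 62.7 CPM, a log2 ratio of 4.01, Kera at 194 against 31.6 CPM (2.44), Fmod at 234 against 45.1 CPM (2.25) and Col14a1, a fibril-associated collagen, at 135 against 48.0 CPM (1.40). Fmod lost its call when 10 CPM was enough to carry Tnmd (2.29), and when cells were weighted equally (1.59), as did Col14a1 (0.91). Kera was not called at 200 CPM (2.74). Leaving out the Krt10 cells took the call from Col14a1, so that 3 of 8 remained. Mkx at 1.77 and Thbs4 at 2.34 had log2 ratios above 1 but not the same sign in every pool. Col1a2 was at 9454 against 3457 CPM (1.45) and Col1a1 at 4743 against 1763 CPM (1.42).

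Other genes named by their ratio in the same comparison were the protease-like Prss35 (136 against 12.7 CPM, log2 ratio 2.99), the serine protease Htra3 (168 against 28.1, 2.38), Fam46a (462 against 110, 2.02) and the mineralization inhibitor Mgp (221 against 55.0, 1.92). Ctgf, a matricellular protein, had a log2 ratio of 2.17 that fell to 0.91 without pool 12. Of 16 collagen synthesis genes 4 were called higher: the prolyl hydroxylase subunit P4ha1 (1.30), the lysyl hydroxylase Plod1 (1.26, and 0.91 without pool 8), the chaperone Fkbp10 (1.05, and 0.75 without pool 12) and Crtap (1.02, and 0.82 without pool 8). With cells weighted equally all 4 lost the call (P4ha1 0.73, Plod1 0.68, Fkbp10 0.64 and Crtap 0.75), and without the cells marked by Scrublet Fkbp10 (0.85) and Crtap (0.93) did. P4ha1 also lost it at 10 CPM (1.09) and at 200 CPM (0.95). Htra3 was not called at 200 CPM (2.45). Of 18 cartilage matrix genes 1 was called higher, Col11a1 at 1.69, a chain that also nucleates type I fibrils. Col2a1 was at 644 against 158 CPM, a log2 ratio of 1.99 that was not called.

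Markers of other cell types were lower in Tnmd-only cells than in cells with neither. Of 14 epithelial genes 10 were called lower, led by Krt14 at 13.8 against 523 CPM, of 13 muscle genes 3 (5 without pool 10), and of 7 immune genes 2. The class with neither is a mixture that includes those cell types, and the part of this mixture in the ratios was not tested. Summed over the class, the epithelial markers held 101 CPM in Tnmd-only and 1851 CPM in Lect1-only cells, and 1973 CPM in cells with neither. Over single cells their medians were 66.2, 95.0 and 93.4 CPM, with at most 2155, 11214 and 38279 CPM, so a few cells set the larger sums.

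Cartilage matrix genes were higher in Lect1-only cells of E15.5 than in cells with neither, with 11 of 18 called. Of all genes, 0.518% were called higher and 7.48% lower. On the cartilage matrix list 11 of 18 were called higher and 0 lower, all 18 ratios were above 0, and the median log2 ratio was 3.17 beside -0.14 over all genes. This count was 11 to 14 with single pools left out, and 10 without the Krt10 cells or without the cells marked by Scrublet, where Hapln1 lost its call. Col9a1 was at 730 against 23.9 CPM (log2 ratio 4.67, and 5.37 without pool 8), Cytl1 at 820 against 27.5 (4.66, and 5.30 without pool 9), Col9a3 at 915 against 35.8 (4.50), Col2a1 at 3658 against 158 (4.49) and Acan at 236 against 9.98 (4.01, and 4.69 without pool 11). Matn1 at 147 against 0.337 CPM was not called. Outside the lists, Susd5 had the highest log2 ratio, 5.11 (281 against 3.28 CPM). The transcription factor Tcfl5 (3.74) and the secreted cartilage protein Mia1 (3.52) were also among the 8 highest. With 10 CPM enough to carry a member, Tcfl5 (3.45) and the listed genes Cytl1 (4.21) and Prelp (2.58) were not called.

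Of 13 chondrogenic regulators 4 were called higher in Lect1-only cells: Wwp2 (2.94), Sox9 (437 against 83.3 CPM, 2.32), Fgfr3 (2.11, and 2.90 without pool 9) and the forkhead factor Foxc1 (1.59). Without the Krt10 cells Fgfr3 was not called. Sox5 at 1.30 and Sox6 at 1.76, the partners of SOX9, were not called. On the tendon list 0 of 8 were called in either direction, and Scx was at 52.4 against 62.7 CPM. Col1a1 was at 1912 against 1763 CPM, a log2 ratio of 0.12 that was not called.

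At E12.5 the 8 Lect1-only cells, from pools 4, 5 and 6, had 3 of 18 cartilage matrix genes called higher and 6 of 8 tendon genes called lower against 147 cells with neither. The background was high on the lower side, where 29.7% of all genes were called, against 0.945% on the higher side. The 8 cells had a median of 170458 counts, against 252372 in cells with neither, and 3 pools were compared. The reason for the high background was not tested. The cartilage genes called (5 without pool 4 or pool 5) were Col9a2 at 534 against 33.7 CPM (log2 ratio 3.801, and 3.01 without pool 4), Papss2 at 628.1 against 56.7 (3.36, and 4.26 without pool 5) and Col2a1 at 2050 against 361 (2.49, but 1.16 without pool 6 and 3.44 without pool 5). Sox5 was at 529 against 94.0 CPM (2.43) and Sox9 at 699 against 224 CPM (1.62). Sox9 ran from 273 through a median of 615.1 to 1082 CPM over the 8 cells, and all 8 carried it. Among the tendon genes called lower Scx was at 188 against 590 CPM (-1.62) and Kera at -3.13. Scx was carried by 4 of the 8 Lect1 cells (50.0%, 15.7 to 84.3) and by 87 of the 150 other cells (58.0%). On the list of tendon regulators 3 of 11 were called lower and 0 higher, with a median log2 ratio of 0.35 beside -0.51 over all genes. With 20 added to each CPM, Col14a1 (-0.74), Tnc (-0.60) and Fmod (-0.45) were not called. With 10 CPM enough to carry Lect1, the ratio of Kera turned to 1.04 and Col2a1 was not called (2.21), nor was Col2a1 with cells weighted equally (2.31). Fmod, 1 of the 6, was not called without pool 5 (-0.49). The transferase Chst3, which sulphates chondroitin, was at 238 against 8.62 CPM (4.16, and 3.28 without pool 4), and the hyaluronan synthase Has2 at 197 against 30.0 (2.53, with 1.77 without pool 5 and 3.20 without pool 4).

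A larger share of Scx cells carried Tnmd at E15.5 than at E12.5. Summed Scx was 60.3 CPM in cells labelled E10.5, then 826 and 226 CPM in the later stages, and the later step was not called because pools overlapped. Of 91 cells with Scx at E12.5, 3 (3.30%) carried Tnmd. The 3 Tnmd cells of that stage all carried Scx, at 182, 2698 and 23993 CPM. At E15.5, 46 cells carried Scx and 16 of them (34.8%, 21.4 to 50.2) carried Tnmd, against 16 of 154 cells without Scx (10.4%). The other tendon genes showed a like pattern at E15.5: 12 of 26 Mkx cells (46.2%), 10 of 20 Kera cells (50.0%) and 17 of 46 Fmod cells (37.0%) carried Tnmd, against 11.5%, 12.2% and 9.74% of cells without these genes. Fmod cells also carried Lect1 more often, 21.7% against 8.44% of cells without Fmod. Of the 32 Tnmd cells, 16 carried no Scx and 9 carried none of Scx, Mkx, Fmod, Kera and Thbs4.

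Sox9 went with Lect1 in the same way. At E12.5, 78 cells carried Sox9 and 8 of these carried Lect1, which was every Lect1 cell. At E15.5, 17 of 68 Sox9 cells (25.0%) and 6 of 132 other cells (4.55%) carried Lect1. Cells split by both factors at E15.5 gave Tnmd in 35.5% and Lect1 in 9.68% of 31 cells with Scx only, and Tnmd in 9.43% and Lect1 in 26.4% of 53 cells with Sox9 only. The 15 cells with both factors carried Tnmd in 33.3% and Lect1 in 20.0%. The 101 cells with neither factor carried them in 10.9% and 2.97%.

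**Figure D4:**
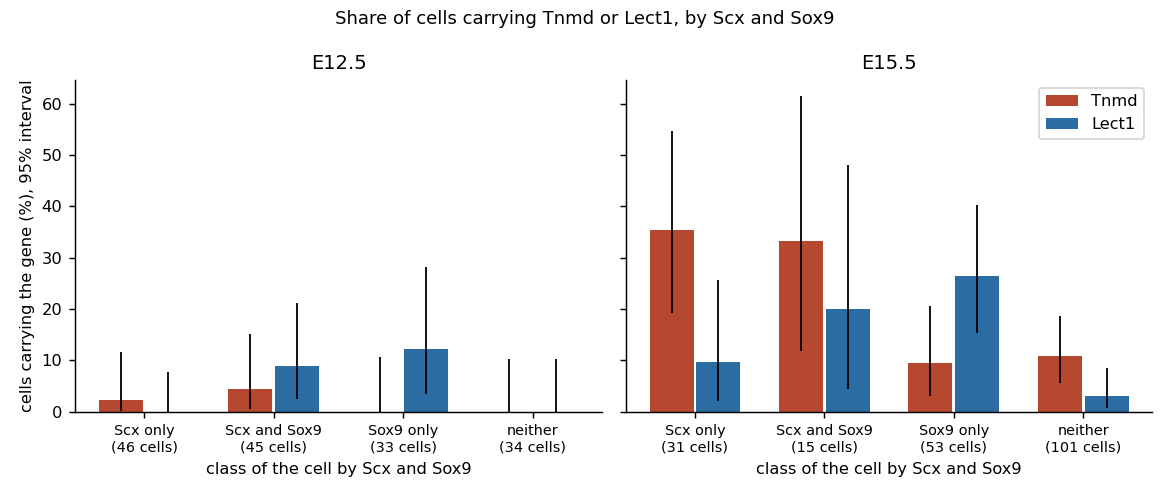
Percent of cells that carried Tnmd or Lect1 among cells grouped by Scx and Sox9, at E12.5 (left) and E15.5 (right), with exact Clopper-Pearson intervals. At E15.5 the Tnmd bar is the higher in cells with Scx (35.5% and 33.3%) and the Lect1 bar in cells with Sox9 only (26.4%).

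Cartilage genes differed in how tightly they went with Lect1 in single cells. All 7 cells that carried Matn1 at E15.5 carried Lect1 (interval 59.0 to 100%), and at E12.5 this held for 1 of 4. The 7 included cells of pools 9 and 10 with 478 and 394 CPM of Matn1 and 2304 and 3264 CPM of Krt10. Acan was carried by 13 of 23 Lect1 cells and 9 of 177 others, and Col9a1 by 13 of 23 and 14 of 177. Col2a1 was much less restricted, in 20 of 23 Lect1 cells and 71 of 177 others. Of the 31 cells with 1000 CPM or more of Col2a1, 15 (48.4%) carried Lect1 and 10 (32.3%) carried Tnmd. Among Tnmd cells 22 of 32 (68.8%) carried Col2a1, and among all others 69 of 168. At E12.5, 24 cells passed 1000 CPM of Col2a1, and 4 of these carried Lect1 and 0 Tnmd.

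The genes most like each member across the 200 cells of E15.5 were read from Pearson's r of log2(CPM + 10) with 10364 genes, as a description. The cells share 1 sample, 5 pools and their depth, and r of either member with log2 total counts was at most 0.15. The 12 highest for Tnmd were Fmod (0.43), Mkx (0.42), Htra3 (0.41), Scx (0.39), Kera (0.38), Fam46a (0.38), Prss35 (0.38), Zfp185 (0.36), Abi3bp (0.35), Fat1 (0.34), Zfp938 (0.34) and Col1a2 (0.34). The 12 highest for Lect1 were Susd5 (0.62), Col9a1 (0.57), Acan (0.56), Col9a3 (0.56), Tcfl5 (0.55), Matn1 (0.55), Matn4 (0.51), Col2a1 (0.49), Mia1 (0.49), Chadl (0.49), Cytl1 (0.48) and Trim47 (0.46). The 99th percentile over all genes was 0.23 for Tnmd and 0.22 for Lect1. Values for Tnmd were lower than those for Lect1, and no gene stood on both lists. By Spearman's rho 5 of the 12 Tnmd genes and 7 of the 12 Lect1 genes stayed among the 12 highest.

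**Figure D5:**
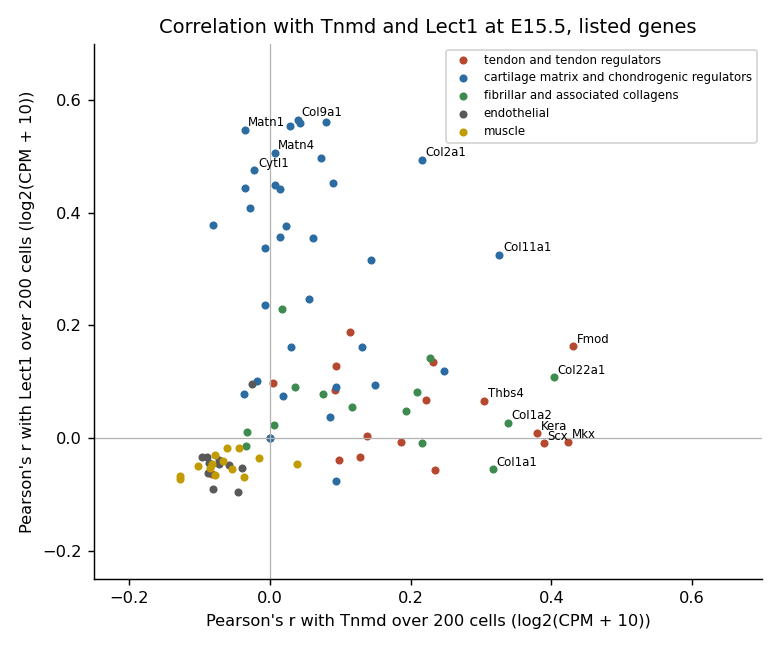
Pearson's r with Tnmd (x) and with Lect1 (y) over 200 cells of E15.5 for genes of 5 groups of lists, each point a gene. Tendon genes such as Mkx and Scx lie along the x axis near 0.4, cartilage genes such as Matn1 and Col9a1 along the y axis above 0.5, and Col11a1 and Col2a1 lie between.

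Clusters made without both genes put Tnmd and Lect1 cells side by side. A cluster of 28 cells of E15.5, led by Acan, Cytl1, Susd5 and Fmod, was named cartilage-like from 7 markers. This cluster held 7 Tnmd-only, 8 Lect1-only and 3 of the 4 cells with both. Tnmd was at 722 CPM and Lect1 at 339 CPM in its sum, which was 48.8% of the Tnmd and 42.7% of the Lect1 counts of the stage. The name does not cover all of its cells, which included the pool 11 cell with both genes and high tendon genes. Tnmd-only cells of pool 8 in it, at 3590 and 2896 CPM of Tnmd, held 952 and 868 CPM of Kera and 0 of Acan. Other Tnmd-only cells in it, of pools 8 and 9, held 304 and 404 CPM of Acan. A cluster with 91 cells of E15.5 (93 in all), led by the mast cell proteases Cma1 and Cpa3 and left unnamed because these go against its connective tissue markers, held 16 Tnmd-only and 7 Lect1-only cells. It gave 48.4% of the Tnmd and 33.6% of the Lect1 counts. At E12.5 all 3 Tnmd cells lay in a cluster led by Aldh1a2, Hoxd12 and Scx, with 3 Lect1 cells. That cluster held 84 of the 158 cells of the stage. The other 5 Lect1 cells lay in another cluster without a name, which held 43 cells of the stage.

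Other genes of the BRICHOS family were not called between these classes. Of 7 other members listed, 3 were tested, the type II membrane proteins Itm2a, Itm2b and Itm2c. Itm2a stood at 43.5, 199 and 819 CPM in the 3 stages and was called higher in both steps, Itm2b at 37.7, 193 and 356 CPM and was called in the first, and Itm2c at 143, 167 and 202 CPM and was called in neither. In the 4 class comparisons none of the 3 was called, and Itm2a was at 791 CPM in Tnmd-only and 1400 CPM in Lect1-only cells.

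Few endothelial markers were called in the cells of either member, though most of their ratios to cells with neither were below 0. The 11 endothelial markers summed to 73.4 CPM in Tnmd-only cells and 81.1 CPM in Lect1-only cells, against 429 CPM in cells with neither, a class that holds the endothelial-like cells. Their medians over single cells were 10.4, 7.59 and 10.54 CPM in the 3 classes, so a few cells set the sum of the last. Of the 11, 0 were called between Tnmd-only and Lect1-only cells, 0 between Tnmd-only cells and cells with neither, and 2 were lower in Lect1-only cells than in cells with neither, the receptors Kdr (0.580 against 58.5 CPM, and a log2 ratio of -3.51, or -2.82 without pool 12) and Tek, which lost its call without the cells marked by Scrublet. Without pool 10 these counts were 1, 8 and 8. Against cells with neither, 10 of the 11 ratios were below 0 in Tnmd-only cells, with a median log2 ratio of -2.52 beside -0.09 over all genes. In Lect1-only cells 10 of the 11 were also below 0, with a median of -2.57 beside -0.14. Of all genes, 5.91% and 7.48% were called lower in these comparisons. Among 10 other angiogenesis inhibitors 1 was called between the classes, Serpinf1, which encodes PEDF, at 280 CPM in Tnmd-only and 105 CPM in Lect1-only cells (1.37, and 0.68 without pool 12).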

How the data were processed

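Single cells of 480 of the labelled samples were analysed, and another 1120 samples were not analysed here. The deposited table gives each cell's integer count for every gene, which the authors made with Bowtie2 and featureCounts on mm10, per the submitters' processing notes. No version is named there. The table held 22738 entries for 22092 symbols, of which 298 symbols were listed more than once (0.101% of counts); identical entries were kept once and others summed. The labels of cells gave stage and library pool. No 2 cells held identical counts, and the same 40 cell indexes served all 12 pools.

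A cell needed 1000 detected genes, which removed 3 cells, and 13125 genes with a count in at least 10 cells were tested. Counts were summed per stage or class and divided by the total to give CPM. A stage is 1 sample, so calls follow a rule of size (log2 ratio of CPM + 5 of at least 1, pools agreeing) and carry no p-value. The rule was run on simulated counts with known fold changes. There every cell of a group was shifted alike, whereas a few cells set some sums here. The simulation therefore does not measure how often the rule errs in these data. Clusters came from scanpy 1.11.5 (2000 variable genes, 15 components, 15 neighbours, Leiden resolution 1) without both members, and were named from at least 3 markers among the top 100 genes. A cluster with 8 connective tissue markers there was left unnamed, since mast cell genes led it. An erythroid name also needed 5% of the cluster's counts, a condition set after seeing the data. Doublets marked by Scrublet (16, 3 and 16 cells in the 3 stages) were kept in the main values.

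Named in each class comparison were the 8 called genes with the largest ratio each way, given at least 50 CPM and a count in 30% of cells, up to 4 called members of each list, the 12 highest correlations per member, the BRICHOS family and a set of tendon, cartilage and endothelial genes. Aldh1a2, Hoxd12, Cma1 and Cpa3 were named beyond it, and only once their values had been seen. The 24 lists held 279 symbols, of which 1 (Col6a3) was not matched. The members and lists were chosen with earlier results of these data known. Alternatives tried were other limits for carrying a gene, thinning, other pseudocounts, equal weight for cells, a crosstalk limit, left-out doublets, pools and highest cells, Spearman's rho and other cluster resolutions; leaving out cells with high Krt10, and marked doublets in the class comparisons, was added after seeing the data.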

Additional observations from a re-analysis of the deposited data

How the results depend on the processing

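Leaving out single pools kept the direction of the 4 stage ratios, with Tnmd from E10.5 to E12.5 at log2 ratios of 0.55 to 1.08. Lect1 over that step was 0.78 with 20 added to each CPM and 0.94 without the highest cell of each pool, both short of a call, and over the next step 2.53 without those cells, where pools overlapped. Cells with both genes at E15.5 were 2 to 4 without single pools, 32 (32.3% of Tnmd cells) when 1 count was enough, 10 when it was enough after thinning and 1 at 200 CPM; at E12.5 they were 1 at 1 count and 1 after thinning. With single pools left out, 3.34 to 4.43% were higher in Tnmd-only than in Lect1-only cells (2.14% with all pools) and 1.87 to 2.33% lower (1.04%); against cells with neither, 0.983 to 1.55% were higher (0.678%) and 8.02 to 10.4% lower (5.91%). For Lect1-only cells these were 0.869 to 1.16% (0.518%) and 9.84 to 12.8% (7.48%) at E15.5, and 1.02 to 3.68% higher (0.945%) at E12.5. Fewer pools make agreement between them easier by construction. At 200 CPM for carrying a gene, 2.73% were lower in Tnmd-only than in Lect1-only cells, 9.53% lower in Tnmd-only cells than in those with neither, and 1.04% (E15.5) and 2.94% (E12.5) higher in Lect1-only cells. With 20 added to each CPM, Tnmd-only cells had 0.404% higher and 2.01% lower, and Lect1-only cells 2.63% lower at E15.5 and 15.7% at E12.5. Without the cells marked by Scrublet, added after seeing the data, 4.93% were higher in Tnmd-only than in Lect1-only cells, 1.196% higher in Tnmd-only cells than in those with neither, and 0.853% higher and 11.6% lower in Lect1-only cells of E15.5. At 10 CPM for carrying a gene, Lhx2 turned to 0.71 in Tnmd-only cells, and Efemp1 (0.40), Kera (1.04) and Osr1 (0.78) turned in Lect1-only cells of E12.5; Lphn3 there ran from -0.73 to 4.99 over left-out pools. Of the 12 genes that went most with each member, 5 (Tnmd) and 7 (Lect1) were shared with Spearman's rho, and for Tnmd 7 to 11 over left-out pools. The highest cluster held 97.2% of Tnmd and 76.3% of Lect1 counts at Leiden resolution 0.5, and 61.1% of Lect1 at 2. The cause of these shifts was not tested. Of the named called genes, 11 of 34 (Tnmd-only against Lect1-only), 19 of 43 (Tnmd-only against neither), 19 of 41 and 33 of 66 (Lect1-only against neither at E15.5 and E12.5) were called under all settings run. Depth limits what single counts show. Cells that should lack both genes also had single counts, and the source of these was not tested. No paired analysis was possible because each stage is 1 pooled sample and cell numbers pair no cells across stages.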

Other observations

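A small group of Lect1 cells at E15.5 lay in the epithelial-like cluster, and not all of them were high in keratins. The epithelial-like cluster held 29 cells of that stage, and 4 of them carried Lect1, at 138 CPM in the sum of the cluster or 23.2% of the stage's Lect1 counts. Tnmd was carried by 1 of these cells, at 2.90 CPM in the sum. Krt10, a keratin of differentiating epidermis, reached 1000 CPM in 2 of the 23 Lect1 cells and in 0 of the 32 Tnmd cells, against 7 of all 200 cells. The Lect1 cell of pool 9 held 665 CPM of Lect1, 2304 CPM of Krt10 and 8075 CPM of Col2a1. The cell of pool 10 held 1440 CPM of Lect1, 3264 CPM of Krt10 and 9374 CPM of Col2a1. Both cells thus held cartilage collagen and keratin together, and whether each is 1 cell or a mixture was not tested. Dcn, which encodes the fibroblast proteoglycan decorin, was carried by 62.5% of Tnmd cells and by 62.5% of the other cells.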
